A study of Mus musculus with 6 samples.

Results

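The genes of DNA replication and cell division were examined in the vomeronasal organ (VNO), a chemosensory organ at the base of the nasal septum that senses pheromones, in wild-type and AP-2e null mice at postnatal day 17. The gene Tfap2e encodes AP-2e, one of the AP-2 transcription factors. The set comprised 36 genes of S phase and mitosis, chosen by symbol, and 35 of them had a probe set annotated to a single gene among the 22180 genes of the array table. Ccnb1, which encodes cyclin B1, was not analysed here. Each genotype had 3 samples, and the RNA of each sample was hybridised to 1 array, and the design text of the series names the direct comparison of the genotypes. Both groups were raised alike, killed with CO2 and dissected at once, and neither received a drug. The sources used here do not give strain, sex, the number of animals per sample or the construction of the null allele. The labels call the 3 samples of a genotype biological replicates, and p-values measure the spread between them.

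A cell that divides first loads the MCM helicase onto its replication origins, copies its DNA in S phase with help from the sliding clamp PCNA and enzymes that supply deoxynucleotides, and then separates the copies in mitosis under cyclin-dependent kinases, the kinetochore and the spindle. Most of these genes are transcribed only in cycling cells, where E2F factors act on the S phase genes and the MuvB complex with B-Myb and FoxM1 on the mitotic ones. The VNO keeps producing sensory neurons after birth from dividing progenitors, which lie mainly at the margins of the sensory epithelium. Blood-forming cells, where they are caught in a dissection with bone, divide as well and use the same genes.

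All values are log2 signals as deposited, and values of single arrays are given in the order of replicates 1, 2 and 3. The median of all probe sets lay between 4.997 and 5.079 on each array, and pairs of arrays correlated across probe sets, which are not independent replicates, with r between 0.971 and 0.985. Tfap2e, the gene of the null allele, had a signal of 6.46, 6.76 and 6.92 in wild-type replicates 1, 2 and 3, against 5.97, 6.09 and 6.04 in the AP-2e null ones (difference -0.68, SE 0.13, limma adjusted p = 0.431). The female-specific transcript Xist had a signal of 10.64 on AP-2e null replicate 1, against 3.55 to 3.58 for the other 5 arrays. Neuron genes of the organ were present: the 7 measured sensory neuron markers averaged between 9.25 and 9.57 per array, where the lower quartile of all probe sets was 3.62. The means of all 35 cell cycle genes, between 4.58 and 9.17, lay above that quartile. The number of arrays limits the precision of every value.

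No cell cycle gene passed the test of the genotype difference. In limma, 0 of 35 genes had a Benjamini-Hochberg adjusted p under 0.05 over all 22180 genes, where 0.225% of all genes did, and the adjusted p of the 35 was at least 0.873. At an unadjusted p under 0.05 there were 2 genes, Foxm1 and Ttk, both with higher signal in AP-2e null VNOs, where 4.4% of all genes reached this level and 1.9% did so with higher signal. A plain equal-variance test without moderation called 0 of the 35 genes, where it called 4 of all 22180, and had 1 of the 35 at an unadjusted p under 0.05. The direction was nonetheless lopsided, with 32 genes of higher mean in AP-2e null VNOs and 3 of lower mean, where 49.4% of all genes had a higher mean. The median difference of the 35 genes was 0.096 and that of all genes -0.001. In tissue RNA, a change in the number of dividing cells and a change in RNA per dividing cell cannot be told apart.

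That lopsided direction depended most on 1 array. The mean signal of the 35 genes was 6.80, 6.37 and 6.74 in wild-type replicates 1, 2 and 3, against 6.90, 6.74 and 6.65 in the AP-2e null ones. Wild-type replicate 2 lay below all others, and the other 2 wild-type arrays lay within the range of the AP-2e null arrays. The genotypes averaged 6.64 ± 0.23 and 6.77 ± 0.13 (SD, n = 3 each), and their difference of 0.13 was smaller than the SD of the wild-type arrays. Without wild-type replicate 2 the difference was -0.006, and 12 genes had a higher mean in AP-2e null VNOs and 23 a lower one, where 47% of all genes were higher. Leaving out the lowest wild-type array had to lower the difference. When any other single array was left out, the difference was between 0.061 (without AP-2e null replicate 1) and 0.213 (without wild-type replicate 1). Without AP-2e null replicate 1, 27 genes had a higher mean in AP-2e null VNOs and 8 a lower one, and the median difference of all genes was -0.004.

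The proliferation marker Mki67, whose product coats mitotic chromosomes, had the same highest and lowest array as the mean of the set. Its signal was 8.95, 7.98 and 8.95 in wild-type replicates 1, 2 and 3, against 9.22, 8.93 and 8.54 in the AP-2e null ones. Wild-type replicates 1 and 3 lay between the AP-2e null arrays, and wild-type replicate 2 lay below every other array. Wild-type arrays averaged 8.63 ± 0.56 and AP-2e null arrays 8.90 ± 0.34 (SD, n = 3 each), and the difference was 0.27 with a 95% interval from -0.54 to 1.07, and it was -0.057 without wild-type replicate 2. Top2a, the topoisomerase that untangles replicated chromosomes, had 7.36, 6.94 and 7.40 in wild-type replicates, against 7.40, 7.49 and 7.20 in the AP-2e null ones. Again wild-type replicate 2 was the lowest array and the genotypes overlapped (difference 0.13, 95% interval -0.24 to 0.51).

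**Figure D1:**
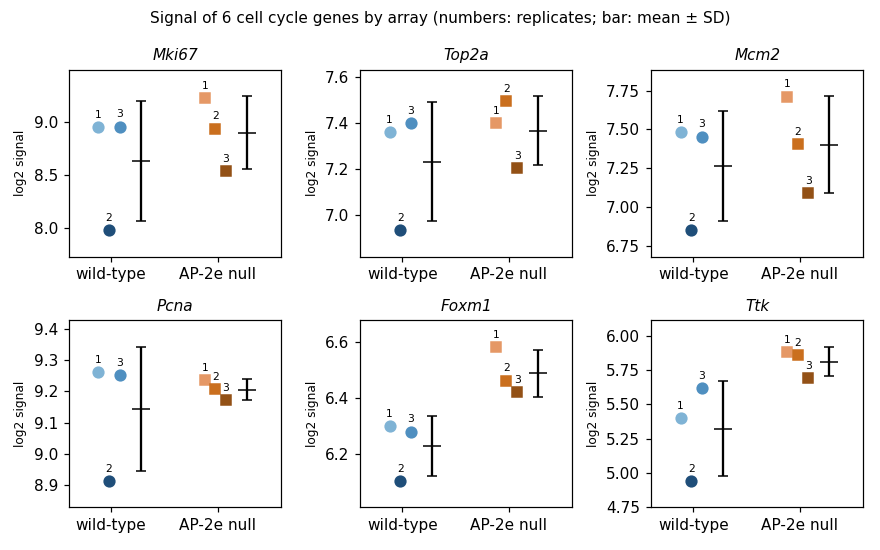
Log2 signal (vertical axes, a separate range for each gene) of Mki67, Top2a, Mcm2, Pcna, Foxm1 and Ttk on the 3 wild-type (circles) and 3 AP-2e null (squares) arrays, with replicate numbers at the points and mean ± SD beside them. Wild-type replicate 2 is the lowest array for each of the 6 genes, and the genotypes do not overlap for Foxm1 and Ttk.

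Promoters of cell cycle genes often carry short sequences through which the cell cycle factors act, and these were counted here as a description. Whether they bear on the shared pattern over the arrays was not tested. Windows from 250 bases before to 50 after annotated starts were available from RefSeq (GRCm38.p6) for 30 of the 35 genes, and Mcm7 had 2 windows, giving 31. Each was searched on both strands for the CHR element (TTTGAA), to which MuvB complexes bind, for the CCAAT box, which NF-Y binds and whose letters are its name, and for the E2F core. The core was searched in 4 spellings: the first is TTCCCGC, while another has a different middle, TTGGCGC, a further one reads TTCGCGC, and the last one is TTGCCGC. The E2F letters overlap each other on opposite strands, so that 1 stretch can give 2 matches, and a match is a description of letters and not of binding. The CHR letters were found in 15 of 20 windows of mitosis genes (75.0%) and in 1 of 11 windows of S phase genes (9.09%, the window of Mcm2), against 17.9% of all 32851 windows of this length. E2F letters showed the opposite split, with 8 of 11 S phase windows (72.7%) and 2 of 20 mitosis windows (10%, Cdk1 and Mki67), against 9.57% of all windows. The CCAAT letters were found in 9 of 11 S phase windows (81.8%) and in 15 of 20 mitosis windows (75.0%), against 37.4% of all. At least 1 of the 3 kinds of letters was found in 27 of 31 windows (87.1%), against 53.7% of all. The first 6 stretches below are the 150 bases before the annotated start of the genes with the smallest p in the genotype comparison that have a match there, and Mki67 and Mcm6 follow with 200 bases because they show the CHR and E2F letters clearly (these 2 were chosen after their matches were seen). Capitals mark CCAAT, CHR and E2F matches on either strand, so ATTGG is a CCAAT box read from the other strand, and each sequence runs 5′ to 3′ toward the gene.
Ttk (chr9:83834539-83834688, plus strand): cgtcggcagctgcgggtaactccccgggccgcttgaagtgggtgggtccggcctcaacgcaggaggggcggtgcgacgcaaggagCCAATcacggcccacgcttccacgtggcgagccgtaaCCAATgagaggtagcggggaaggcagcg
Kif23 (chr9:61946800-61946949, minus strand): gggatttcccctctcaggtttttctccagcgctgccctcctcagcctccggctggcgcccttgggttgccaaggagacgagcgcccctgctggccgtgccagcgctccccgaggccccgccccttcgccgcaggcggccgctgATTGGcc
Plk1 (chr7:122159285-122159434, plus strand): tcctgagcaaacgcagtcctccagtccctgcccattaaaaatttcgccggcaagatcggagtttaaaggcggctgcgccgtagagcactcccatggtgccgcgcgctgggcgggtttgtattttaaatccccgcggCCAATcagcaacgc
Cdc20 (chr4:118437344-118437493, minus strand): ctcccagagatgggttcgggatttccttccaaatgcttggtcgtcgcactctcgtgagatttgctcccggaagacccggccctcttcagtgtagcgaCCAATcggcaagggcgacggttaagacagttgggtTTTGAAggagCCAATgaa
Mcm3 (chr1:20820313-20820462, minus strand): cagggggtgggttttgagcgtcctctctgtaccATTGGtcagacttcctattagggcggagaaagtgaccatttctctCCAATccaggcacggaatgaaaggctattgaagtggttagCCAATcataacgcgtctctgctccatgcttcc
Bub1 (chr2:127831860-127832009, minus strand): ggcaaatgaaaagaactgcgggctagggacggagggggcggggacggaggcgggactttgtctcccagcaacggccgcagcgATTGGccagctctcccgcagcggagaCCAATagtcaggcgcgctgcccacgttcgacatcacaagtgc
Mki67 (chr7:135716380-135716579, minus strand): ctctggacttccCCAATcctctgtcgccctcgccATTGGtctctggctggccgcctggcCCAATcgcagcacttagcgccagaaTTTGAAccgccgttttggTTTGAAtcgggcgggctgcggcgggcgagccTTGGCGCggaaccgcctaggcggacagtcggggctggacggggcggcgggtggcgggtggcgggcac
Mcm6 (chr1:128359706-128359905, minus strand): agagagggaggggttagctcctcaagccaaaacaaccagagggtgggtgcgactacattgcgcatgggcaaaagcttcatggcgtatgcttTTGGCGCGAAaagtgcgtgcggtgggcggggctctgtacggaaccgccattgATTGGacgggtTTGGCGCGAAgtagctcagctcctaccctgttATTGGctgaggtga

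Ttk, Kif23, Plk1 and Bub1 have CCAAT boxes close to the start in these stretches, and Mcm3 has 3. Cdc20 has a CHR element between 2 CCAAT boxes. The printed stretches end at the annotated start, while the searched windows run past it. Past the start, CHR letters lie at position 8 in Ttk, 3 in Kif23 and 31 in Plk1. E2F letters lie there at positions 20, 40 and 43 in Mcm3 and at 25 in Mcm6. Mki67 has 3 CCAAT boxes, 2 CHR elements and 1 E2F core, and Mcm6 has 2 CCAAT boxes beside 2 places where E2F letters on both strands overlap.

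The genes of replication licensing and of the replication fork had the same order of arrays as the whole set at its ends. MCM proteins 2 to 7 form the ring-shaped helicase, and Cdc6 loads it onto origins. The mean of the 8 genes was 7.33, 6.80 and 7.21 in wild-type replicates 1, 2 and 3, against 7.46, 7.18 and 7.13 in the AP-2e null ones. All 8 had a higher mean in AP-2e null VNOs, and 2 did without wild-type replicate 2, when the difference of the list went from 0.15 to -0.012. Mcm2 had 7.48, 6.85 and 7.45 in wild-type replicates, against 7.71, 7.40 and 7.09 in the AP-2e null ones, which overlapped (difference 0.14, 95% interval -0.44 to 0.72). Mcm5 had 6.96, 6.35 and 6.87 in wild-type replicates, against 7.33, 6.91 and 6.79 in the AP-2e null ones, a difference of 0.28 (SE 0.22), and overlapped as well. Mcm3 was one of 3 members with their single lowest array in wild-type replicate 3: its signal was 6.92, 6.51 and 6.40 in wild-type replicates, against 6.96, 6.91 and 6.67 in the AP-2e null ones (difference 0.24, SE 0.16). Pcna, the sliding clamp of the replication fork, varied least of the 8 genes, with 9.26, 8.92 and 9.25 in wild-type replicates, against 9.24, 9.21 and 9.17 in the AP-2e null ones. Its difference was 0.062 (95% interval -0.20 to 0.33), and wild-type replicate 2 alone stood apart from the other 5 arrays. Mcm4, Mcm6, Mcm7 and Cdc6 differed by between 0.051 and 0.16.

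Enzymes of deoxynucleotide supply varied to very unequal extents. Rrm1 and Rrm2 encode the large and small subunits of ribonucleotide reductase, and Tyms encodes thymidylate synthase. Rrm2, named with its values after these were seen, had the widest range of all 35 genes, 1.31, with 6.59, 5.50 and 6.71 in wild-type replicates, against 6.81, 6.04 and 6.24 in the AP-2e null ones. Wild-type replicate 2 was 0.98 below the mean of the other arrays, and the genotype difference of 0.096 had a 95% interval from -0.85 to 1.04. These values are of the brighter of the 2 probe sets of Rrm2, and with the mean of both the difference was 0.027. Tyms had the narrowest range of the 35, 0.14, and a difference of 0.018 (95% interval -0.13 to 0.16). Rrm1 differed by 0.072 (95% interval -0.19 to 0.33).

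Among the cyclins, the mitotic kinases and their transcription factor, Foxm1 had the smallest p of the 35 genes. FoxM1 activates mitotic genes. Its signal was 6.30, 6.10 and 6.28 in wild-type replicates, against 6.58, 6.46 and 6.42 in the AP-2e null ones, so every AP-2e null array was above every wild-type array. The difference was 0.26 (SE 0.080, unadjusted p = 0.0192, adjusted p = 0.873 in limma), and 0.20 without wild-type replicate 2. Plk1, the Polo-like kinase of mitotic entry and exit, had 6.70, 6.61 and 6.83 in wild-type replicates, against 6.83, 6.87 and 6.82 in the AP-2e null ones, which overlapped (difference 0.13, SE 0.070). Cdk1, the kinase that drives entry into mitosis, and Aurka, the kinase of spindle poles, were 2 of the 3 genes with a lower mean in AP-2e null VNOs, at -0.067 (95% interval -0.36 to 0.23) and -0.0080 (95% interval -0.40 to 0.39). Cyclin genes Ccna2 and Ccnb2 differed by 0.074 and 0.097, with wild-type replicate 2 the lowest array for both.

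Kinetochore and checkpoint genes included the largest difference of the set. Ttk, the kinase at the top of the spindle checkpoint, had 5.40, 4.94 and 5.62 in wild-type replicates, against 5.88, 5.86 and 5.69 in the AP-2e null ones, and the genotypes did not overlap. The difference was 0.49 (SE 0.18, 1.40-fold, 95% interval 0.039 to 0.94, unadjusted p = 0.0378, adjusted p = 0.873 in limma), and 0.30 without wild-type replicate 2. Foxm1 and Ttk were the 2 of 35 genes with every AP-2e null array above every wild-type array, which held for 3.42% of all genes. No member had the reverse, which held for 808 of all 22180 genes. Bub1, a checkpoint kinase, had 5.43, 4.67 and 5.43 in wild-type replicates, against 5.67, 5.42 and 5.43 in the AP-2e null ones. It overlapped, and wild-type replicate 2 was 0.81 below the mean of the other arrays (difference 0.33, SE 0.23, and 0.080 without that array). Cdc20, the activator of the ubiquitin ligase that starts anaphase, had 6.85, 6.59 and 6.35 in wild-type replicates, against 6.92, 6.82 and 6.70 in the AP-2e null ones, and here wild-type replicate 3 was the lowest (difference 0.22, SE 0.14). Ndc80 and Nuf2 belong to 1 complex that binds microtubules, and their values differed in pattern. Ndc80, named with its values after these were seen, was highest on AP-2e null replicate 1 at 7.13 and lowest on AP-2e null replicate 3 at 6.01, and Nuf2 was lowest on wild-type replicate 2 at 6.22. Cenpe, Cenpf and Bub1b differed by 0.092, 0.088 and 0.077.

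Spindle and cytokinesis genes had small differences. Kif23, the motor of the centralspindlin complex that acts in cytokinesis, had 6.38, 6.04 and 6.22 in wild-type replicates, against 6.53, 6.43 and 6.38 in the AP-2e null ones, where the highest wild-type and the lowest AP-2e null value were equal. Its difference was 0.24 (SE 0.10, unadjusted p = 0.0610, adjusted p = 0.873 in limma). Of the chromosomal passenger complex, which corrects faulty microtubule attachments, Birc5, Cdca8 and the kinase gene Aurkb differed by 0.21, 0.089 and 0.025. The motor gene Kif11, which pushes spindle poles apart, and the spindle factor genes Nusap1 and Tpx2 differed by 0.096, 0.16 and 0.086. Kif2c, a motor that takes microtubules apart, had the lowest difference of the set, -0.10 (95% interval -0.45 to 0.24).

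**Figure D2:**
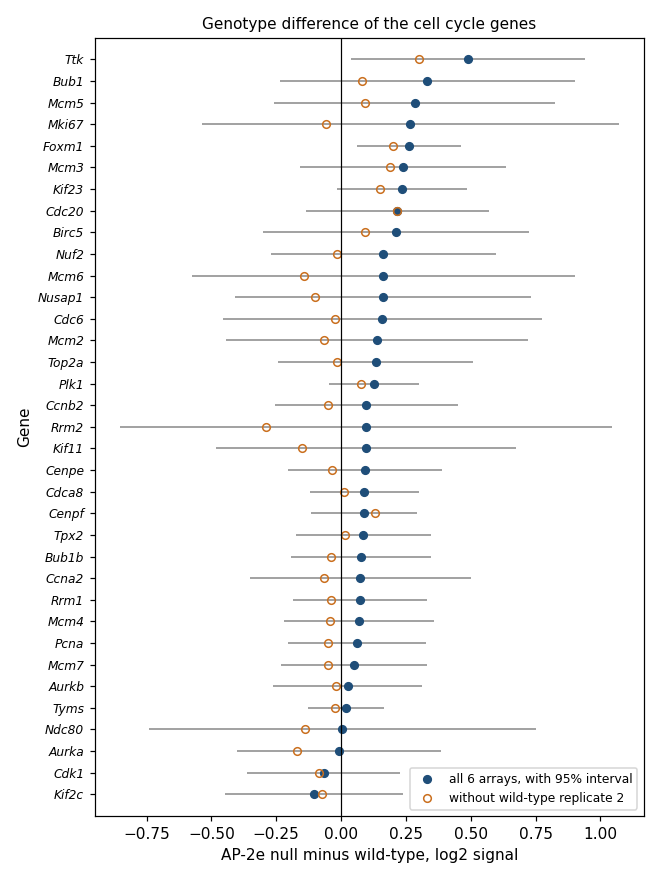
AP-2e null minus wild-type log2 signal of the 35 genes (vertical axis, sorted), with the 95% interval of the limma fit as a line for all 6 arrays (filled) and the difference without wild-type replicate 2 (open). The filled points run from -0.10 for Kif2c to 0.49 for Ttk, and 23 open points lie below 0.

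The intervals describe each gene by itself and are not adjusted for the number of genes tested, as the calls are. Those of Foxm1 (0.061 to 0.46) and Ttk (0.039 to 0.94) lay above 0, and neither gene passed. A gene can thus have an interval that excludes 0 and still go uncalled. The distance from a difference to either bound of its 95% interval was between 0.15 and 0.95 log2 units, with a median of 0.35. The upper bound was above 1 for 2 genes, Rrm2 and Mki67, and the lower bound was below -1 for 0 genes. A p that misses the threshold does not show that the levels were equal.

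For the mean of the 35 genes the SD between wild-type arrays was larger than the difference between the genotypes, and most members varied over the arrays in the same way. Wild-type replicate 2 was the single lowest array for 27 of 35 genes (77.1%), and Birc5 tied there with wild-type replicate 3, while 18.6% of all genes had their lowest value on that array. AP-2e null replicate 1 was the highest array for 18 of 35 genes (51.4%), where 18.4% of all genes were highest there. That array also had the high Xist signal, 10.64, and the part of sex in the comparison was not tested. All 35 genes were above their own mean over the 6 arrays on AP-2e null replicate 1, and 33 were below it on wild-type replicate 2. Against the mean of the other 5 arrays, wild-type replicate 2 was lower for 33 of 35 genes, as it was for 52.6% of all genes. Over all genes these shares were near even: 53.8% were above their mean on AP-2e null replicate 1 and 47.1% on wild-type replicate 2. Relative to the mean of the other 5 arrays, wild-type replicate 2 was lower by a median of 0.347 for the 35 genes and of 0.007 for all genes. The gap was widest for Rrm2 (-0.98), Mki67 (-0.94), Mcm6 (-0.83), Bub1 (-0.81) and Ttk (-0.75). Cdk1 (-0.0030), Cenpf (0.044) and Kif2c (0.13) did not share it. The list mean on wild-type replicate 2 was 1.32-fold below the mean of the others, 1.38-fold for the 11 S phase genes and 1.29-fold for the 24 mitosis genes.

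**Figure D3:**
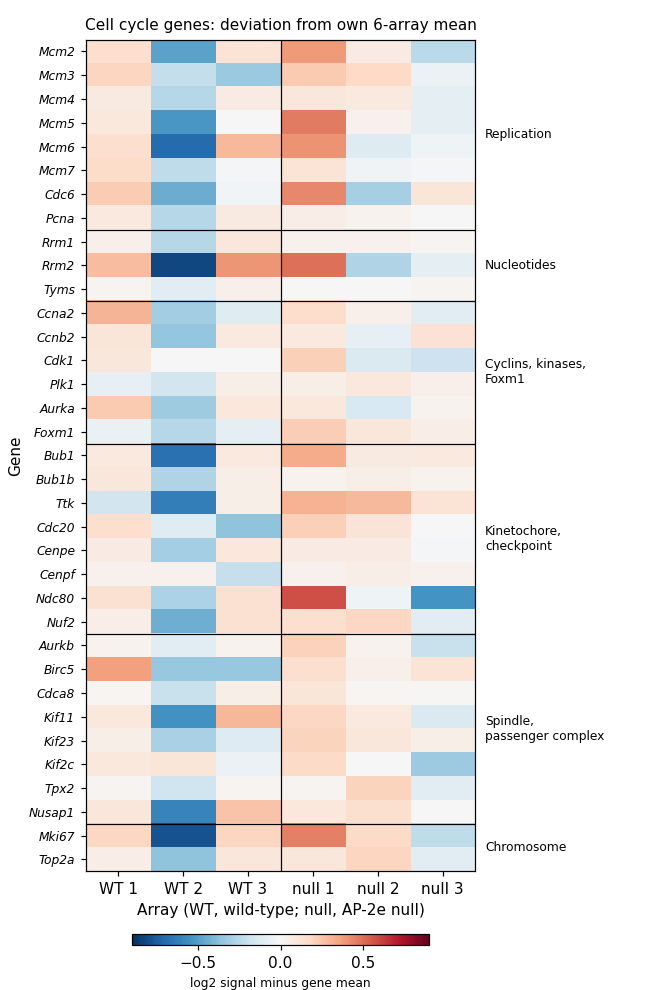
Deviation of each of the 35 genes (rows, by role) from its own mean over the 6 arrays (columns), in log2 signal, with blue for lower and red for higher. Wild-type replicate 2 is lower for 33 genes and AP-2e null replicate 1 is higher for all 35.

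Other genes of the cell cycle, taken from lists by role, had no call either. Of 42 further S phase genes measured, none passed in limma (0 called, 0 at an unadjusted p under 0.05). A higher mean in AP-2e null VNOs was found for 28 of the 42, and for 49.4% of all genes. The smallest p among them belonged to Uhrf1, which maintains DNA methylation at replication forks, with a difference of 0.31 (unadjusted p = 0.0654), and to Pole2, a DNA polymerase subunit, with a difference of 0.32 (unadjusted p = 0.0668, limma adjusted p = 0.873 for both). Of 62 further mitosis genes, 0 passed in limma and 3 had an unadjusted p under 0.05, 2 higher and 1 lower, where 4.4% of all genes reached this level. Racgap1, which joins Kif23 in the centralspindlin complex, had 7.91, 7.76 and 7.99 in wild-type replicates, against 7.55, 7.37 and 7.57 in the AP-2e null ones. It was lower on every AP-2e null array, opposite in direction to Kif23, and did not pass (difference -0.39, unadjusted p = 0.00569, adjusted p = 0.815 in limma). Kif20a, a motor of cytokinesis, differed by 0.26 and Gas2l3 by 0.52 (unadjusted p = 0.0328 and 0.0387, limma adjusted p = 0.873 each), and Espl1, the protease that cuts cohesin, by -0.18.

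These further genes were low on the same array as the members. Wild-type replicate 2 was the single lowest array for 25 of the 42 S phase and 36 of the 62 mitosis genes, and for 18.6% of all genes. The list means on that array were 0.20 and 0.27 below the mean of the other arrays. Without it, the genotype difference of the mitosis list went from 0.038 to -0.064 and that of the S phase list from 0.045 to -0.026. The 6 genes of G1 cyclins and their kinases, which are not restricted to S phase and mitosis, varied less. Their list mean was between 8.51 and 8.70 on each array, 0 passed, and Ccnd3 had the largest difference among the named ones at 0.16, followed by Cdk4 at 0.077. Of 14 genes that restrain the cell cycle, 0 passed. Rbl2, a retinoblastoma relative, differed by 0.17 (unadjusted p = 0.0344), the inhibitor genes Cdkn1a and Cdkn2c by -0.23 and 0.31, and Rbl1 by 0.11.

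Markers of other cells were set beside the cell cycle genes, array by array, since dividing cells of more than 1 kind could be in the sample. The 7 measured genes of erythroid cells, precursors of red blood cells included, had a list mean of 6.64, 5.48 and 6.84 in wild-type replicates, against 7.10, 6.17 and 6.12 in the AP-2e null ones. As for the cell cycle genes, wild-type replicate 2 was the lowest, AP-2e null replicate 1 the highest and AP-2e null replicate 3 the second lowest. On wild-type replicate 2 the erythroid list was 1.10 below the mean of the other arrays, or 2.14-fold. The anion exchanger gene Slc4a1 had 8.62, 6.97 and 9.01 in wild-type replicates, against 9.18, 8.24 and 8.18 in the AP-2e null ones, and Rhag, of the Rh blood group complex, had 6.99, 4.96 and 6.82 and 7.32, 6.27 and 6.15. All 7 erythroid genes were lower on wild-type replicate 2 than the mean of the others, and 5 had their single lowest value there.

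Genes of neutrophil precursors, which make granule enzymes while still dividing, had a list mean of 5.92, 5.26 and 5.80 in wild-type replicates, against 6.11, 6.10 and 5.69 in the AP-2e null ones. Wild-type replicate 2 was again the lowest, and it was the single lowest array for 5 of the 6 genes. Mpo, myeloperoxidase, had 6.81, 5.79 and 6.79 in wild-type replicates, against 7.36, 7.27 and 6.61 in the AP-2e null ones, and Elane, neutrophil elastase, had 6.43, 5.35 and 6.21 and 6.66, 7.04 and 6.04. Markers of mature neutrophils went another way, with wild-type replicate 3 the lowest array at 7.60 and the others between 8.27 and 8.53. B cell precursor genes had a list mean of 5.94, 5.73 and 5.79 in wild-type replicates, against 6.20, 5.97 and 6.02 in the AP-2e null ones. No gene of these 4 lists passed in limma, and at an unadjusted p under 0.05 there was 1, Mmp8 of the neutrophil list, with a difference of 0.41. The part of these cells in the cell cycle signal was not tested.

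The list means of progenitors and young neurons of the organ itself had narrower ranges over the arrays than that of erythroid cells, but some of their genes were as low on wild-type replicate 2 as the cell cycle genes. The 11 measured genes of neurogenic progenitors had a list mean of 6.61, 6.50 and 6.60 in wild-type replicates, against 6.58, 6.60 and 6.73 in the AP-2e null ones, a range of 0.23. Wild-type replicate 2 was the lowest here too, 0.12 below the mean of the others, and 8 of the 11 genes lay below that mean. Sox11 was 0.424 lower there, Insm1 0.334 and Mybl1 0.305, beside the median of 0.347 of the cell cycle genes. The highest array of the list was AP-2e null replicate 3, on which the cell cycle list was second lowest. In limma none of these genes passed (0 called, 0 at an unadjusted p under 0.05). Between the genotypes, Mybl1, a MYB relative, differed by 0.21, Sox11 by 0.18 and Insm1, a zinc finger factor of neuronal progenitors, by 0.16. Immature neuron genes had list means between 8.86, on wild-type replicate 2, and 9.07, and a difference of -0.0020. Among these, Crmp1 differed by 0.16 and the tubulin gene Tubb3 by -0.25.

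Epithelial and muscle markers had other orders of arrays. Basal epithelial genes were highest on wild-type replicate 1 at 8.44 and lowest on AP-2e null replicate 1 at 6.95, the array on which the cell cycle list was highest. Krt17 was at 9.09 and 6.44 on these 2 arrays, and its own highest value was 9.24, on AP-2e null replicate 2. Skeletal muscle genes were highest on wild-type replicate 2 at 5.43, where the other arrays lay between 4.75 and 5.13. On AP-2e null replicate 2 the cartilage genes averaged 8.57, against 6.67 to 7.07 elsewhere. List means of bone genes were between 9.52, on wild-type replicate 2, and 9.85, on AP-2e null replicate 3. On wild-type replicate 2, 7 of the 8 bone genes lay below the mean of the other arrays. List means of endothelium were between 7.31 and 7.56 and of macrophages between 7.36 and 7.57. None of these lists had a gene that passed in limma, and the part of these tissues in the cell cycle signal was not tested.

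**Figure D4:**
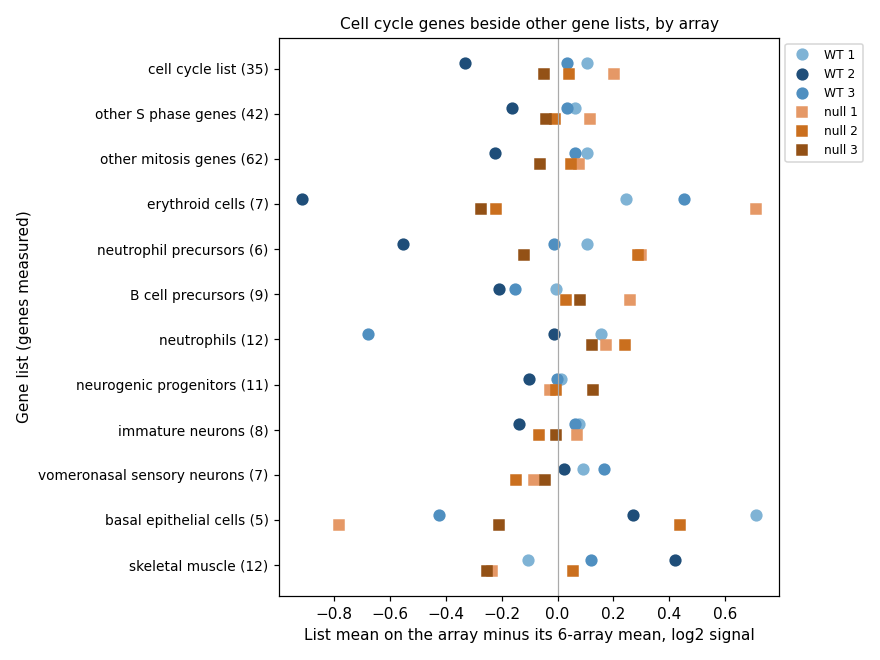
Mean of each gene list on an array minus the mean of that list over the 6 arrays, in log2 signal (horizontal axis), for the cell cycle genes and 11 other lists (vertical axis, with genes measured), wild-type as circles and AP-2e null as squares. Wild-type replicate 2 is the lowest array for the cell cycle, S phase, mitosis, erythroid, neutrophil precursor, B cell precursor, neurogenic progenitor and immature neuron lists, with the widest gap in the erythroid list.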

How the data were processed

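Total RNA of the VNO (100 ng per sample, per the labels' protocols) was labelled for Affymetrix whole-transcript arrays. The authors deposited log2 signals, 1 per probe set and array, made with RMA and the Transcriptome Analysis Console per the submitters' processing notes. The sources used here give no version, setting or genome build, and no scanner files were used, so background and normalization are as deposited.

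The table held 41345 probe sets, of which the platform annotation named 1 gene for 23521, several for 1814 and none for 16010. RefSeq (GRCm38.p6) matched 23328 of the 1-gene probe sets by Entrez identifier and changed 0 symbols. The probe set with the highest mean per gene was kept (22180 genes). No filter on dim genes was set. In 18 of the 35 members, as in 53.6% of all genes, arrays shared identical values. RMA equalises the arrays, so a change common to most genes would not be seen.

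The genotype comparison used limma 3.58.1 under R 4.3.3 (lmFit, eBayes, 2-sided), adjusted by Benjamini-Hochberg over all genes, with 95% intervals from the moderated fit. List means are descriptions without a test. The fit was run on simulated data with independent noise and shifts of 1 and 2 log2 units, larger than any member difference. That check does not cover smaller changes or genes that vary together over the arrays. The members had a wider range over the arrays than genes in general (median 0.558, against 0.382 for all genes). Members, lists and alternatives were chosen with earlier results of these data known. Full values were given for the 8 members with the smallest p and for Mki67, Top2a, Pcna and Mcm2, and up to 4 genes of each further cell cycle list and up to 3 by p or 3 by range of each marker list could be named. The other settings were cyclic loess, a second quantile normalization, median centring, leaving out the dimmest 30% of genes, averaging or separating the probe sets of a gene, trend and robust moderation, array weights, the plain test, the replicate block and leaving out each array. Figures used matplotlib 3.10.9 (Python 3.11.15).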

Additional observations from a re-analysis of the deposited data

How the results depend on the processing

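The count of cell cycle genes past the threshold was 0 under all 16 alternatives run, and that of the 124 further cell cycle genes was 0 under all 15. The mean difference of the 35 genes was 0.093 with median centring, 0.089 with array weights and between 0.12 and 0.13 with the other settings on all arrays that take a mean over the genes. With the median over the genes per array it was 0.14. Leaving out single arrays gave -0.0060 (without wild-type replicate 2) to 0.21. With the replicate block the mean difference was 0.13 and 0 genes were called. The numbers were not taken as pairs, since no label says that they pair samples. Deviations of same-numbered arrays correlated at 0.040, 0.11 and 0.019, which does not settle the pairing because differently numbered arrays were not compared. The block moved the count over all genes from 50 to 22. The plain test called 4 of all genes, and leaving out single arrays gave 17 (without wild-type replicate 2) to 32.

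Directions of single genes changed mostly with wild-type replicate 2. Of the 35 genes, 12 kept their direction under all alternatives run, and 23 changed it when some single array was left out. The differences then ranged as follows: Mcm2 -0.066 to 0.29, Mcm4 -0.044 to 0.13, Mcm6 -0.14 to 0.35, Mcm7 -0.052 to 0.14, Cdc6 -0.024 to 0.35, Pcna -0.052 to 0.12, Rrm1 -0.039 to 0.14, Rrm2 -0.29 to 0.32, Tyms -0.025 to 0.044, Ccna2 -0.064 to 0.25, Ccnb2 -0.050 to 0.18, Cdk1 -0.19 to 0.011. The others were Aurka -0.17 to 0.11, Bub1b -0.040 to 0.15, Cenpe -0.036 to 0.16, Ndc80 -0.28 to 0.27, Nuf2 -0.015 to 0.27, Aurkb -0.074 to 0.13, Kif11 -0.15 to 0.27, Kif2c -0.21 to 0.034, Nusap1 -0.10 to 0.33, Mki67 -0.057 to 0.45, Top2a -0.014 to 0.22, and, outside the 35, Cdk4 -0.008 to 0.14 and Cdk6 -0.013 to 0.13. On all arrays, Mcm7 was -0.0060, Ccna2 -0.025, Cdk6 -0.0050 and Ndc80 -0.058 with array weights. With median centring Tyms was -0.017, Aurkb -0.011 and Ndc80 -0.031, and Ndc80 was -0.010 with repeated quantile normalization and -0.0040 with cyclic loess. No adjusted p of a member under any alternative was below 0.327, that of Birc5 without wild-type replicate 1.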
